A study of Xenopus tropicalis with 15 samples.

Results

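Autophagy is the route by which a cell encloses part of its own cytoplasm in a double membrane and delivers it to the lysosome. The genes described here are 37 of the 26531 genes in a count table from Xenopus tropicalis blood, chosen by name: the atg, ulk, wipi, map1lc3 and gabarap families together with becn1, rb1cc1, sqstm1, optn, tax1bp1, bnip3 and bnip3l. A row for pink1 was not analysed here. After a filter on low counts, 30 of the 37 were tested among 8939 genes.

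Total peripheral blood cells of wild-type frogs were taken from the heart into the anticoagulant EDTA. EPO cultures received 1 ng/mL recombinant X. tropicalis erythropoietin (EPO), the hormone that drives red cell production, made in E. coli, and were harvested after 1.5 h or 4.0 h. Control cultures were kept for the same times in the same medium, diluted IMDM with fetal calf serum, without EPO, and fresh cells were harvested before culture. Each of the 5 groups had 3 libraries numbered 1 to 3, read by 3' RNA-seq. The labels call them biological replicates and name no animals, so p-values measure the spread between these libraries.

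A kinase complex of ULK, ATG13, ATG101 and RB1CC1 (FIP200) starts autophagosome formation, and a lipid kinase complex with BECN1 and ATG14 then marks the membrane that WIPI proteins bind and that ATG2 and ATG9 supply with lipid. Enzymes related to those of ubiquitin conjugation attach ATG8 proteins, the LC3 and GABARAP families, to that membrane, and receptors such as SQSTM1 (p62) tie cargo to them. In mice, reticulocytes clear their mitochondria as they mature, a step that uses the outer membrane receptor Bnip3l (NIX) and the kinase Ulk1. Frog red cells keep their nucleus, and the values below are RNA levels, which measure neither protein nor autophagic flux.

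EPO libraries held 2287764 to 6351053 counts, control libraries 1958663 to 4472724 and fresh libraries 1329340 to 2329659, so the EPO groups were read more deeply on average (4995332 against 2948795 counts). The 9 globin genes took 41.9% to 48.4% of each library's counts, as the label blood would have it. Libraries of the same number deviated together from their group means (30 pairs, r = 0.280 to 0.626), while those of different numbers did not (60 pairs, r = -0.391 to 0.0484). Deviations from a group mean sum to 0, so positive r in same-numbered pairs forces negative r in the others, which is no separate support. The positive r of same-numbered pairs was taken to pair the libraries. Tests that take the number as a block are therefore given beside the unblocked ones wherever they change a call. The fresh library of number 1 was least like the others (median r of log2 levels 0.956, against 0.963 to 0.976).

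Other blood cells were followed by marker lists written from knowledge of other vertebrates. The summed level of 16 erythroid markers was 405657 to 468136 CPM (counts divided by the scaled size of the library) in EPO libraries and 435641 to 512594 CPM in control libraries. That of 15 granulocyte and monocyte markers was 236 to 376 CPM with EPO and 245 to 349 CPM in control cultures, that of 10 thrombocyte markers 488 to 555 and 460 to 549 CPM, and that of 8 B cell markers 74.6 to 103 and 67.2 to 108 CPM. The sums of 12 T and NK cell markers were 9.70 to 15.2 CPM with EPO and 20.2 to 25.8 CPM in control cultures at 4.0 h, with no overlap. At 1.5 h they were 8.68 to 13.4 and 9.48 to 21.1 CPM. A few genes made up most of some sums. Among T and NK cell markers prf1 averaged 10.2 CPM over all libraries, and the next, cd247, 1.65 CPM. In the thrombocyte list tubb1 averaged 387 CPM and gfi1b 63.5 CPM, and no other gene above 18.8 CPM, so that sum mostly follows tubb1. Whether tubb1 and gfi1b mark thrombocytes alone in frog blood was not tested. The B cell markers ms4a1 and cd74 averaged 50.5 and 37.2 CPM. The granulocyte and monocyte markers mmp9.1 and alox5ap averaged 125 and 113 CPM. Between EPO and control over both times, 3.69% of all tested genes passed with the block (1.98% up and 1.71% down). Of 13 tested granulocyte and monocyte markers 4 did, 2 up (ncf1, spi1) and 2 down (mpo, alox5ap). So did 3 of 16 erythroid markers (gata1 up, hba1 and epor down) and 1 of 9 thrombocyte markers (gfi1b down). Of T and NK cell and of B cell markers 0 of 2 each passed, lists too short to set against that share. The markers mmp8 and cd8b were at 0 in every library. Whether these shifts in markers take part in the results below was not tested. In a bulk sample fewer cells of a type and less RNA per cell cannot be told apart.

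The 37 genes together took 0.164% of all counts, between 0.126% and 0.192% of a library. Counts were taken at the 3' end and are given as CPM with TMM scaling, with no correction for length, so a level describes how well a gene was counted and is compared between libraries rather than between genes. The receptor sqstm1 gathered the most counts, with a mean of 440 CPM over the 15 libraries, and the ATG8 gene gabarap followed with 371 CPM. The ATG8 gene gabarapl2 averaged 137 CPM and the kinase gene ulk2 94.8 CPM. The spread differed widely between these well counted genes: the coefficient of variation over 15 libraries was 7.22% for gabarap, 34.0% for sqstm1 and 74.2% for ulk2.

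**Figure D1:**
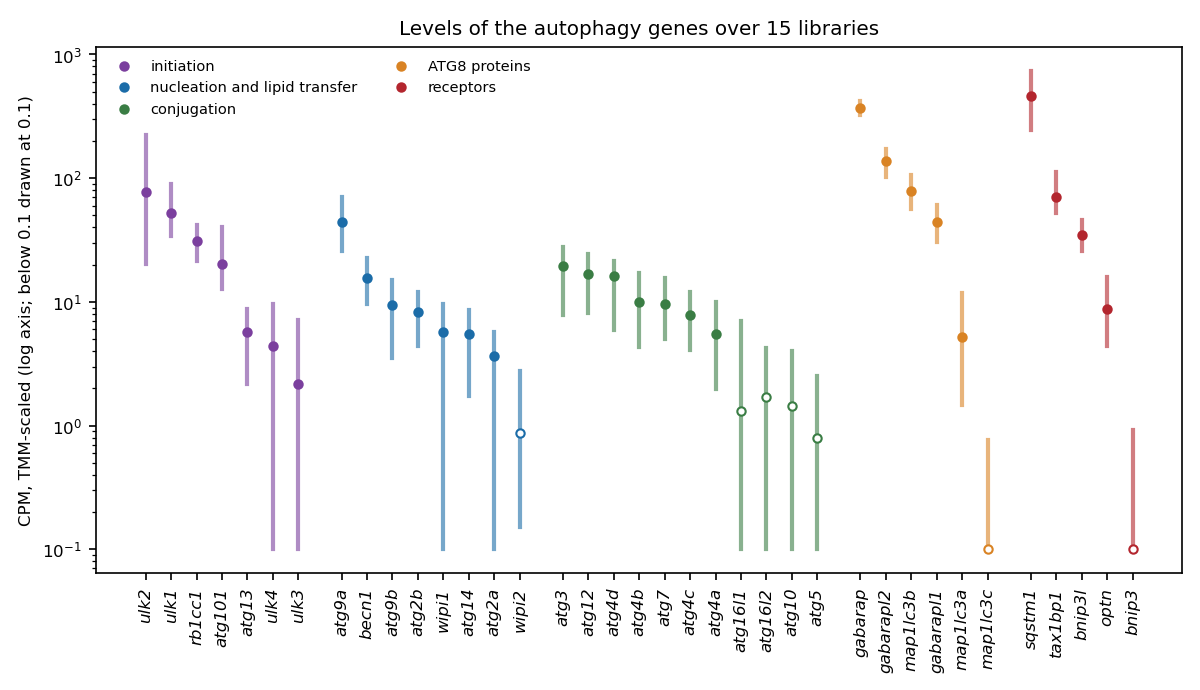
Levels of the 37 genes in TMM-scaled CPM on a log axis, grouped by role, with the median of 15 libraries as a point and the lowest and highest library as a line. Open points mark the 7 genes that did not pass the filter on low counts, and values below 0.1 CPM are drawn at 0.1; sqstm1 and gabarap lie highest, and ulk2 has the longest line among the well counted genes.

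The 7 genes left untested were atg5, atg10, atg16l1, atg16l2, wipi2, map1lc3c and bnip3. Of the conjugation genes, atg16l1 gathered 109 counts over the 15 libraries, atg16l2 93, atg10 75 and atg5 60, and the phosphoinositide binding gene wipi2 gathered 46. The LC3 gene map1lc3c had 10 counts and was at 0 in 12 libraries. The mitochondrial receptor gene bnip3 had 8 counts and was at 0 in 11 libraries, whereas its relative bnip3l was counted in every library at 25.7 to 46.0 CPM. At this depth 3 counts correspond to 0.455 to 2.21 CPM, so bnip3, whose highest library was 0.920 CPM, was not detectable at a level at which groups could be compared.

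SQSTM1 is both a cargo receptor that is itself degraded by autophagy and a signalling scaffold, and its gene rose with EPO when replicate numbers were paired. At 1.5 h, sqstm1 had 736, 461 and 483 CPM in EPO cultures (numbers 1, 2 and 3), against 523, 331 and 326 CPM in control cultures. At 4.0 h it had 725, 514 and 490 CPM in EPO cultures, against 502, 331 and 327 CPM in control cultures. The EPO library was the higher of the same-numbered pair in 6 of 6 pairs, while the groups overlapped at both times because all libraries of number 1 were high. The ratio of EPO to control was alike from pair to pair, 1.41, 1.39 and 1.48 at 1.5 h and 1.44, 1.55 and 1.50 at 4.0 h.

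**Figure D2:**
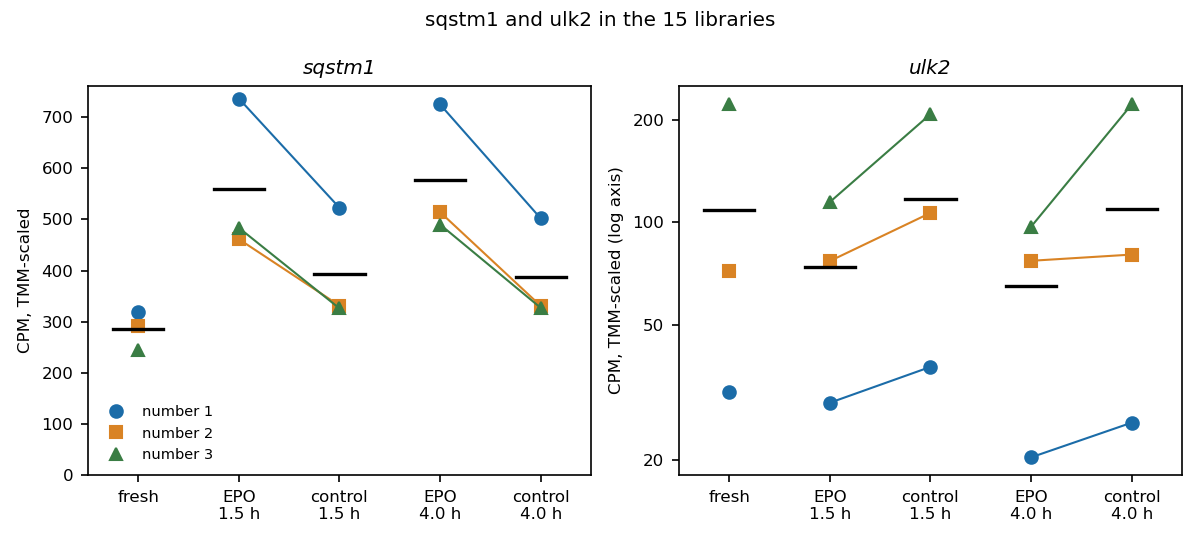
Levels of sqstm1 (left, linear axis) and ulk2 (right, log axis) in TMM-scaled CPM in each of the 15 libraries, with replicate numbers 1, 2 and 3 as circles, squares and triangles, group means as black bars, and lines joining the EPO and control library of the same number and time. Every sqstm1 line falls and every ulk2 line climbs between the EPO and the control library.

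Whether sqstm1 passed the test depended on how the replicate numbers were treated. With 5 group means alone, the log2 fold change over both times was 0.54 ± 0.156 (SE, 3 libraries a group; edgeR quasi-likelihood test, adjusted p = 0.0972), with 0.51 at 1.5 h (adjusted p = 0.605) and 0.58 at 4.0 h (adjusted p = 0.501). With the number as a block, sqstm1 rose by 0.55 ± 0.0623 (95% interval 0.42 to 0.67, edgeR adjusted p = 3.52e-09). The blocked test passed at each time as well, at 0.51 ± 0.0879 (edgeR adjusted p = 7.99e-05) at 1.5 h and 0.58 ± 0.0884 (edgeR adjusted p = 2.00e-05) at 4.0 h. These blocked calls held in 23 of 23 alternatives, leaving out each library or number included. The EPO effect did not differ detectably between the times. Without the block, the difference was 0.06 ± 0.311 (4.0 h minus 1.5 h, edgeR adjusted p = 1.00, 95% interval -0.58 to 0.71). With the block, it was 0.07 ± 0.124 (95% interval -0.18 to 0.32) and did not pass either. An exact sign-flip test over the 3 numbers gave p = 0.25, the smallest that 3 pairs allow.

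Counted over all members, sqstm1 stood nearly alone. Without the block, 0 of 30 members passed at 1.5 h, where 0.436% of all tested genes did, 0 of 30 at 4.0 h (all genes 0.19%) and 0 of 30 over both times (all genes 1.19%). At an unadjusted p under 0.05 edgeR called 1 member at 1.5 h (all genes 7.13%), 3 at 4.0 h (all genes 7.1%) and 2 over both times (all genes 11.8%). The Wald test of DESeq2 called 0, 0 and 1 at an adjusted p under 0.05, the last being sqstm1. With the block, 1 member passed at 1.5 h (all genes 1.55%; 1.07% rose) and 1 at 4.0 h (all genes 0.85%; 0.324% rose), in both cases sqstm1. Over both times 2 of 30 passed (all genes 3.69%): sqstm1 rose, as 1.98% of all genes did, and ulk2 fell, as 1.71% did. The median log2 fold change of the 30 members was -0.01 at 1.5 h, -0.02 at 4.0 h and -0.05 over both times, beside -0.02, 0.00 and -0.01 over all genes tested. For the difference of the EPO effects between the times, 0 of 30 members passed (all genes 0%), with 0 at an unadjusted p under 0.05 (all genes 2.55%) and 0 by DESeq2, and 0 passed with the block (all genes 0.134%).

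**Figure D3:**
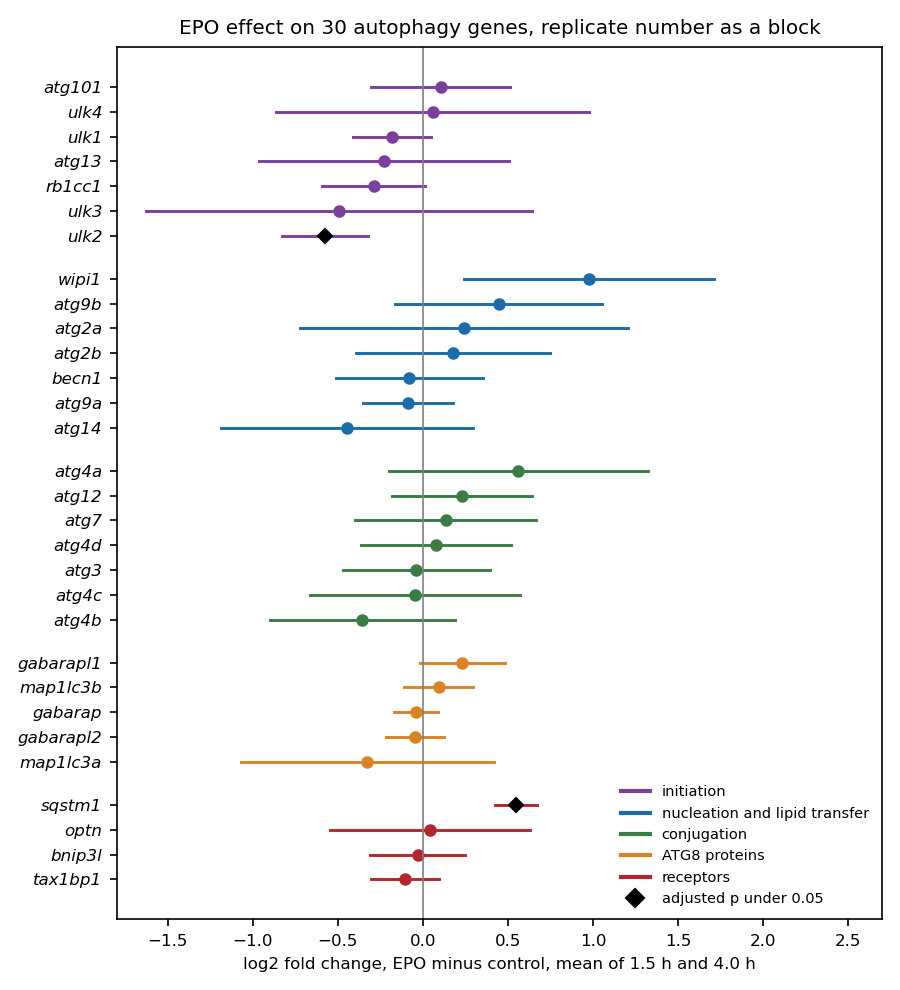
Log2 fold change of EPO over control, averaged over 1.5 h and 4.0 h, for the 30 tested genes by role, from edgeR with the replicate number as a block; lines are 95% intervals and black diamonds mark an adjusted p under 0.05. The points for sqstm1 at 0.55 and ulk2 at -0.58 are the marked ones, and the interval of wipi1 lies above 0 without an adjusted p under 0.05.

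The other receptors had EPO effects near 0. The mitophagy receptor gene bnip3l had 39.1, 38.1 and 36.2 CPM in EPO cultures and 41.4, 38.4 and 31.8 CPM in control cultures at 1.5 h. At 4.0 h bnip3l had 34.7, 34.4 and 29.1 CPM in EPO cultures, 34.2, 46.0 and 25.7 CPM in control cultures, and 29.5, 41.6 and 30.98 CPM in fresh cells. The ranges overlapped throughout, and the EPO effect over both times was -0.05 ± 0.155 (edgeR adjusted p = 0.948), with a 95% interval of -0.37 to 0.26 on the log2 scale. The ubiquitin-binding receptor genes tax1bp1 and optn had EPO effects of -0.11 ± 0.145 and 0.05 ± 0.299 (edgeR adjusted p = 0.864 and 0.981).

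The 7 genes grouped here under initiation include every ulk gene by name, and a role of ulk3 and ulk4 in that step was not examined. Among these 7, ulk2, which encodes a relative of ULK1, was lower with EPO in every pair. At 1.5 h it had 29.4, 76.9 and 115 CPM in EPO cultures (numbers 1, 2 and 3), against 37.5, 107 and 208 CPM in control cultures. At 4.0 h it had 20.3, 77.0 and 97.0 CPM in EPO cultures, against 25.7, 80.3 and 222 CPM in control cultures. The libraries of number 1 lay far below those of numbers 2 and 3 and the groups overlapped, although EPO was the lower in 6 of 6 pairs. Averaged over the times, the pairs differed by -0.34, -0.27 and -1.03 on the log2 scale for numbers 1, 2 and 3.

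Without the block the EPO effect on ulk2 over both times was -0.70 ± 0.686 (edgeR adjusted p = 0.798). With the block, ulk2 fell by 0.58 ± 0.125 on the log2 scale (95% interval of the change -0.83 to -0.33, edgeR adjusted p = 0.00289), but neither time passed alone (edgeR adjusted p = 0.0989 at 1.5 h and 0.119 at 4.0 h). The call held in 22 of 23 alternatives and was lost without number 3, where the change was -0.30 (edgeR adjusted p = 0.446). Number 3 therefore carries much of the size of this change. For ulk2 the exact sign-flip test over the 3 numbers also gave p = 0.25, the smallest that 3 pairs allow.

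The kinase gene ulk1 had 49.2, 53.6 and 64.7 CPM in EPO cultures and 46.2, 51.6 and 61.3 CPM in control cultures at 1.5 h. At 4.0 h ulk1 had 41.7, 46.5 and 57.9 CPM in EPO cultures, against 57.8, 52.7 and 89.2 CPM in control cultures. EPO was thus slightly the higher in 3 of 3 pairs at 1.5 h and the lower in 3 of 3 pairs at 4.0 h. Neither effect passed (0.08 ± 0.211, edgeR adjusted p = 0.983, and -0.44 ± 0.212, edgeR adjusted p = 0.694), nor did their difference of -0.51 ± 0.299 (edgeR adjusted p = 1.00). How many of all tested genes show such agreement of pairs at a single time was not counted. The scaffold gene rb1cc1 was lower with EPO in 6 of 6 pairs, at 21.5 to 31.1 CPM in EPO libraries and 28.8 to 37.2 CPM in control libraries, with an effect of -0.28 ± 0.167 that did not pass (edgeR adjusted p = 0.553). For ulk3, ulk4, atg13 and atg101 the effects over both times were -0.52 ± 0.547, 0.05 ± 0.482, -0.22 ± 0.357 and 0.07 ± 0.223, and for none of these 4 did the edgeR adjusted p fall under 0.05.

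Agreement of all 6 pairs was not rare in these libraries. Of the 30 members, 2 were higher with EPO in 6 of 6 pairs, sqstm1 and wipi1, against 5.09% of all tested genes, and 2 were lower in 6 of 6, ulk2 and rb1cc1, against 4.61%. EPO libraries lay above all control libraries of the same time for 1 of 30 members at 1.5 h (8% of all genes) and 1 at 4.0 h (6.52%), wipi1 in both cases. They lay below them for 0 members at 1.5 h (6.77%) and 1 at 4.0 h, rb1cc1 (7.85%). With 30 members, counts of 0 to 2 are near these shares of all genes.

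In the group for nucleation and lipid transfer, wipi1, which encodes a protein that binds the phosphoinositide made by the BECN1 complex, had the largest positive EPO effect over both times of any tested member. It had 8.20, 7.12 and 9.67 CPM in EPO cultures, against 3.49, 5.74 and 5.17 CPM in control cultures at 1.5 h. At 4.0 h wipi1 had 8.30, 6.96 and 9.70 CPM in EPO cultures, against 2.03, 3.68 and 6.55 CPM in control cultures. The groups did not overlap at either time, but the counts were low, and the effect over both times of 0.93 ± 0.375 did not pass (edgeR adjusted p = 0.271, and 0.144 with the block). Fresh cells had 0, 4.77 and 1.75 CPM of wipi1. The gene becn1, a subunit of the lipid kinase complex, had 22.4, 15.1 and 19.2 CPM in EPO cultures and 13.96, 15.7 and 20.3 CPM in control cultures at 1.5 h. At 4.0 h becn1 had 11.7, 9.57 and 20.8 CPM in EPO cultures, against 19.3, 13.8 and 20.7 CPM in control cultures, and fresh cells had 15.5, 22.1 and 9.94 CPM. Its EPO libraries were the higher in only 2 of 6 pairs, and its effect was -0.06 ± 0.226 (edgeR adjusted p = 0.960). For the lipid transfer genes atg2a and atg2b and the scramblase genes atg9a and atg9b, effects ran from -0.09 to 0.47, and atg14, a BECN1 partner, had -0.40 ± 0.366; none of these 5 passed.

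Of the conjugation genes, atg7 encodes the activating enzyme that starts both conjugation reactions. It had 10.9, 6.41 and 6.72 CPM in EPO cultures and 8.73, 11.5 and 7.56 CPM in control cultures at 1.5 h. At 4.0 h atg7 had 14.6, 15.7 and 9.70 CPM in EPO cultures, against 11.8, 11.04 and 5.04 CPM in control cultures, and fresh cells had 13.3, 8.24 and 7.60 CPM. Its EPO effect over both times was 0.12 ± 0.276 (edgeR adjusted p = 0.940), and the higher group changed between the times without a difference that passed (0.71 ± 0.551, edgeR adjusted p = 1.00). The other 6 tested genes of this group had effects over both times from -0.34 for atg4b to 0.62 for atg4a, both of which encode proteases that trim ATG8 proteins, and 0 of 7 passed with or without the block. At an unadjusted p under 0.05, edgeR and the blocked fit called 0 of these 7 over both times, as did DESeq2 at an adjusted p under 0.05.

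The ATG8 genes encode the small proteins that coat the growing membrane, and gabarap was the steadiest of the well counted members. At 1.5 h gabarap had 377, 363 and 382 CPM in EPO cultures and 357, 404 and 370 CPM in control cultures, and at 4.0 h 360, 323 and 403 CPM with EPO and 372, 348 and 419 CPM without. Its effect over both times was -0.04 ± 0.0973 (edgeR adjusted p = 0.944), with a 95% interval of -0.24 to 0.16. Fresh cells had 328, 370 and 391 CPM of gabarap. For gabarapl2 the levels were 109, 134 and 156 CPM with EPO and 103, 136 and 173 CPM in controls at 1.5 h, and 126, 120 and 164 CPM with EPO and 115, 148 and 165 CPM in controls at 4.0 h. Its effect was -0.05 ± 0.129 (edgeR adjusted p = 0.944), with a 95% interval of -0.31 to 0.21, and fresh cells had 118, 143 and 143 CPM.

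The LC3 gene map1lc3b had 64.9, 73.3 and 87.8 CPM in EPO cultures and 74.6, 83.3 and 76.0 CPM in control cultures at 1.5 h. At 4.0 h map1lc3b had 85.7, 107 and 90.7 CPM in EPO cultures, 66.6, 96.0 and 79.1 CPM in control cultures, and 56.8, 96.7 and 78.9 CPM in fresh cells. These ranges overlap, with an effect of 0.09 ± 0.131 (edgeR adjusted p = 0.879). The LC3 gene map1lc3a was poorly counted, at 3.14, 1.96 and 5.41 CPM in EPO cultures and 4.799, 4.74 and 5.97 CPM in control cultures at 1.5 h. At 4.0 h map1lc3a had 6.27, 3.92 and 11.7 CPM in EPO cultures, 5.75, 9.81 and 4.53 CPM in control cultures, and 1.48, 5.20 and 11.7 CPM in fresh cells. Its interval was wide, -0.98 to 0.58 around an effect of -0.20. The GABARAP relative gabarapl1 had 60.5, 37.6 and 51.8 CPM in EPO cultures and 51.5, 39.2 and 61.3 CPM in control cultures at 1.5 h. At 4.0 h gabarapl1 had 60.8, 43.1 and 59.9 CPM in EPO cultures, against 42.3, 30.7 and 43.8 CPM in control cultures, and fresh cells had 50.2, 42.0 and 37.4 CPM. It was the higher with EPO in 3 of 3 pairs at 4.0 h, as were map1lc3b, atg7, sqstm1 and wipi1. Lower with EPO in 3 of 3 pairs at that time were atg14, atg4b, gabarap, rb1cc1, tax1bp1, ulk1, ulk2 and ulk3. The share of all tested genes with such agreement at 4.0 h was not counted, so these lists cannot be read as a response of the members to EPO. The effect on gabarapl1 at 4.0 h, 0.51 ± 0.217, did not pass (edgeR adjusted p = 0.554, and 0.227 with the block).

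Culture itself was compared through control cultures and fresh cells, a comparison that shares its control libraries with those of EPO. Without the block 0 of 30 members passed at 1.5 h (all genes 0.324%) and 0 of 30 at 4.0 h (all genes 0.0671%). At an unadjusted p under 0.05 edgeR called 1 member at each time (all genes 9.69% and 8.1%), and DESeq2 called 0. With the block 1 member passed at each time, sqstm1 (all genes 1.31% and 0.593%; 0.705% and 0.358% rose). Most members leaned upward after culture, 22 of 30 at 1.5 h and 26 of 30 at 4.0 h, with median log2 fold changes of 0.12 and 0.15 beside 0.02 and 0.01 over all genes, of which 52.0% and 51.0% leaned upward. Both counts were taken against the same fresh libraries, the shallowest on average, so they are not separate observations. Of the members leaning upward, wipi1, ulk3, ulk4 and atg2a each had 0 counts in 1 fresh library. Among them ulk3 passed the filter on low counts only through cultures at 1.5 h, so its upward lean is partly set by the filter. Some markers of other cells differed in the same comparison. The granulocyte and monocyte sums were 245 to 349 CPM in control cultures of both times and 331 to 529 CPM in fresh cells, so the ranges overlapped. With the block, 1 of 9 thrombocyte markers passed at 1.5 h (itgb3, which fell by 2.09 on the log2 scale) and 2 of 9 at 4.0 h (itgb3, which fell by 3.07, and fermt3, which fell by 2.14). Of 13 granulocyte and monocyte markers, 1 passed at 1.5 h (cybb, which fell by 1.86) and 0 at 4.0 h, and the erythroid, T and NK cell and B cell lists had 0 called at either time. The part of these markers in the members' changes was not tested. Between control cultures at 4.0 h and at 1.5 h, 0 of 30 members passed without the block (all genes 0.0112%) and 0 with it (all genes 0.0895%), with 0 at an unadjusted p under 0.05 (all genes 3.73%) and 0 by DESeq2.

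Fresh cells had 318, 292 and 245 CPM of sqstm1, below the control cultures of the same number at both times. With the block, sqstm1 rose by 0.43 ± 0.0909 in control cultures at 1.5 h (edgeR adjusted p = 0.00383, and 0.515 without the block) and by 0.41 ± 0.0910 at 4.0 h (edgeR adjusted p = 0.0124, and 0.6235 without the block). These calls were less steady than the one with EPO. The call at 1.5 h was lost without number 1 (0.29), without the fresh library of number 1 (0.32) and without the control library of number 1 (0.39). The call at 4.0 h was lost without number 1 (0.29), number 3 (0.40), the fresh library of number 1 (0.30) or the control library of number 1 (0.38). The fresh library of number 1 is also the one least like the others.

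Fresh cells had 37.7, 33.8 and 55.5 CPM of ulk1, and control cultures at 4.0 h were 0.65 ± 0.224 higher on the log2 scale, which did not pass in edgeR (adjusted p = 0.350, and 0.0684 with the block) but was called by the DESeq2 Wald test with the block. The widest positive fold change after culture was that of ulk3, at 2.52 ± 0.964 for control cultures at 1.5 h over fresh cells (edgeR adjusted p = 0.345). It rests on 1.75, 4.49 and 7.16 CPM in those cultures against 1.48, 0.867 and 0 CPM in fresh cells. All ulk3 levels at 4.0 h and in fresh cells were 3.07 CPM or less, so ulk3 passed the filter through 1.5 h cultures alone. Its fold change at 1.5 h is thus partly selected by the filter and is not evidence of a rise. Control cultures had 37.5, 107 and 208 CPM of ulk2 at 1.5 h and 25.7, 80.3 and 222 CPM at 4.0 h, against 31.7, 72.0 and 223 CPM in fresh cells. The blocked change in control cultures was 0.20 at 1.5 h (edgeR adjusted p = 0.725) and -0.03 at 4.0 h (edgeR adjusted p = 0.970). The genes bnip3l, becn1, atg7 and the 5 tested ATG8 genes did not pass either, with log2 fold changes over fresh cells between -0.27 and 0.23 at the 2 times. Larger changes that did not pass included those of ulk4 (1.04 and 0.86), wipi1 (0.98 and 0.69) and atg13 (0.93 and 0.50) for 1.5 h and 4.0 h. In the same order, atg2a was at 0.60 and 0.70 and tax1bp1 at 0.33 and 0.43. At a single time, atg4b reached 0.61 at 4.0 h and optn 0.52 at 1.5 h.

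The replicate numbers themselves separated several of these genes, a test chosen after the values of ulk2 had been seen. In the blocked fit 6 of 30 members differed between numbers, against 6.94% of all tested genes, and these 6 are among the 9 members with the highest mean CPM. The clearest was ulk2 (edgeR adjusted p = 3.09e-16), which ranked 11 among the 8939 genes. Its levels did not overlap between numbers 1 and 2, at 20.3 to 37.5 CPM in the 5 libraries of number 1 and 72.0 to 107 CPM in those of number 2, and reached 97.0 to 223 CPM in those of number 3. Number 3 exceeded number 1 by 2.52 ± 0.145 on the log2 scale, several times the size of the EPO effect.

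**Figure D4:**
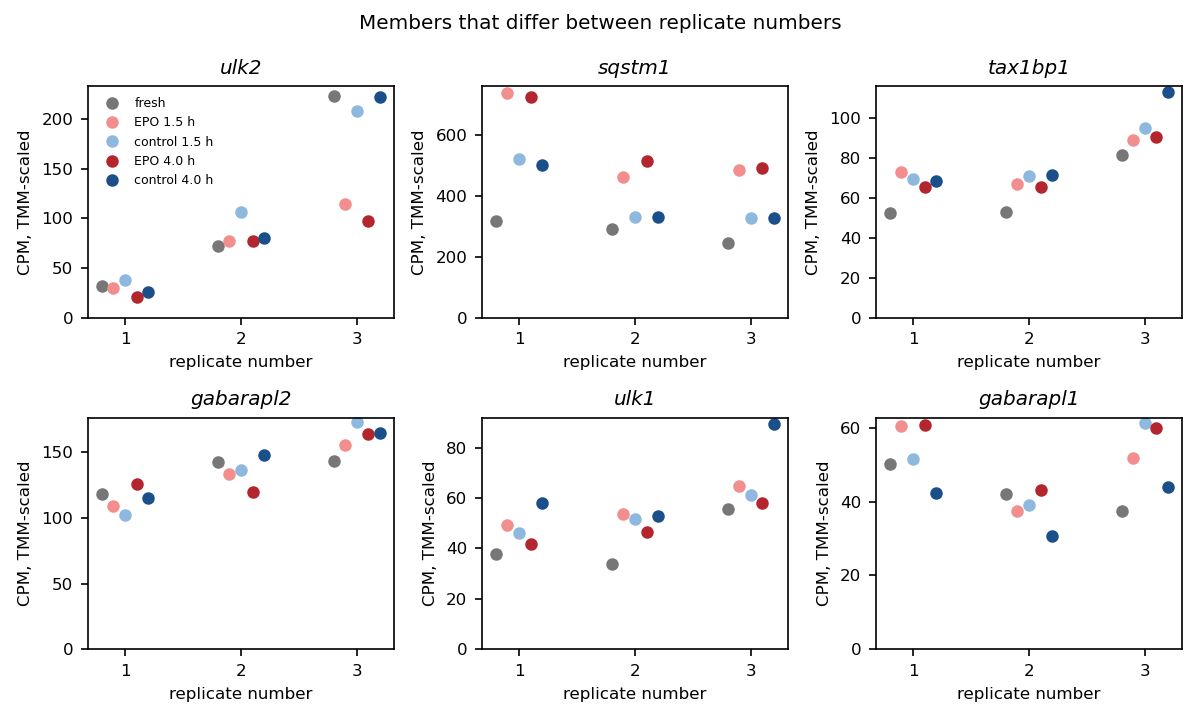
TMM-scaled CPM (linear axes from 0) of the 6 genes that differed between replicate numbers, with each library as a point, replicate number on the horizontal axis and colour for the group. In every group ulk2 is lowest in number 1 and highest in number 3, sqstm1 is highest in number 1, and the medians of tax1bp1 and gabarapl2 are highest in number 3.

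The gene sqstm1 was highest in number 1, with a median of 523 CPM against 331 CPM in number 2 and 327 CPM in number 3 (edgeR adjusted p = 9.51e-10). The levels of tax1bp1, gabarapl2 and ulk1 were highest in number 3 (edgeR adjusted p = 4.15e-04, 6.95e-04 and 0.00826), with medians of 90.2, 164 and 61.3 CPM there against 68.3, 115 and 46.2 CPM in number 1. The gene gabarapl1 was lowest in number 2, with a median of 39.2 CPM against 51.5 CPM in number 1 (edgeR adjusted p = 0.0423). What the numbers stand for, an animal, a clutch or a day, is not given in the labels, and which of these the differences follow was not tested.

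Genes that act beside the members were read from 6 further lists, here for EPO against control over both times unless another time is given. Of all tested genes, 1.19% passed there without the block, 3.69% with it (1.98% up and 1.71% down) and 11.8% at an unadjusted p under 0.05. In a list of partners of the lipid kinase VPS34 and other autophagy factors, 0 of 10 tested genes passed with or without the block. Of the other cargo receptors and mitophagy factors, 0 of 19 did. At an unadjusted p under 0.05 edgeR called 1 gene of each list, and DESeq2 called 0 of each. Of 16 genes for fusion with the lysosome, 0 passed without the block (2 at an unadjusted p under 0.05, 0 by DESeq2) and 1 rose with it, rab7a, a small GTPase of late endosomes (0.45 ± 0.125, edgeR adjusted p = 0.0266). Of 22 genes for lysosomal hydrolases and other lysosomal proteins, 0 passed without the block (2 at an unadjusted p under 0.05, 0 by DESeq2). With the block 1 of them fell, the galactosidase gene glb1 (-0.49 ± 0.136, edgeR adjusted p = 0.0230). The calls for rab7a and glb1 held in 14 and 12 of 23 alternatives, and leaving out any 1 of the 3 numbers ended both, at 0.39 to 0.52 for rab7a and -0.57 to -0.42 for glb1. Leaving out certain single libraries ended each call as well.

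The proton pump that acidifies the lysosome, the V-ATPase, had 15 tested subunit genes, of which 0 passed without the block (3 at an unadjusted p under 0.05, 1 by DESeq2) and 2 rose with it. The catalytic subunit gene atp6v1a averaged 27.8 ± 8.56 and 23.9 ± 6.74 CPM in EPO cultures at 1.5 h and 4.0 h, against 16.97 ± 6.33 and 12.1 ± 5.52 CPM in control cultures (SD, n = 3 each). Its blocked effect was 0.87 ± 0.201 (edgeR adjusted p = 0.00432) and held in 21 of 23 alternatives, the exceptions being without number 1 (0.94) and without number 3 (0.64). Its partner atp6v1b2 rose by 0.62 ± 0.165 (edgeR adjusted p = 0.0178), which held in 17 of 23. That call was lost without number 1 (0.73), number 3 (0.39), the number 3 library of EPO at 1.5 h (0.56) or 4.0 h (0.57), or the control library of number 3 at 1.5 h (0.49) or number 2 at 4.0 h (0.61). The median effect of the 15 subunit genes was 0.13, with 12 of 15 higher, beside -0.01 over all genes, of which 48.9% were higher.

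Among 36 genes of nutrient sensing and transcriptional control (mTORC1, AMPK and their factors), sesn1 was the one gene of any of the 6 lists that passed in edgeR without the block. Over both times 1 of the 36 passed with or without the block, 4 had an unadjusted p under 0.05, and DESeq2 called 1. At 1.5 h 1 of the 36 passed without the block, beside 0.436% of all tested genes. Without the block DESeq2 called 1 at 1.5 h, 2 at 4.0 h and 1 in control cultures at 1.5 h over fresh cells. SESN1, a sestrin, is a leucine-sensing inhibitor of mTORC1 in mammals, and mTORC1 holds autophagy back. At 1.5 h sesn1 had 3.62, 7.83 and 4.59 CPM in EPO cultures, against 16.1, 33.7 and 43.4 CPM in control cultures. At 4.0 h it had 9.99, 12.2 and 13.5 CPM in EPO cultures, against 24.0, 37.7 and 41.3 CPM in control cultures. The groups did not overlap, and sesn1 fell by 2.52 ± 0.388 on the log2 scale at 1.5 h (edgeR adjusted p = 5.79e-04) and by 2.02 ± 0.267 over both times (edgeR adjusted p = 5.11e-05), both in 21 of 21 alternatives. At 4.0 h its fall of 1.51 ± 0.334 passed in edgeR only with the block (adjusted p = 0.0101, and 0.0883 without it) and in 16 of 23 blocked alternatives, with -1.41 as the smallest change, without the control library of number 3.

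The gene mitf encodes a transcription factor of the family that controls lysosomal genes. At 4.0 h it was lower with EPO than in control cultures by 1.07 ± 0.276 with the block (edgeR adjusted p = 0.0372, and 0.112 without the block). Its means at 1.5 h and 4.0 h were 13.4 and 11.9 CPM with EPO and 14.8 and 25.5 CPM in control cultures, and 29.7 CPM in fresh cells. With the block 2 of the 36 genes passed at 4.0 h, beside 0.85% of all tested genes. The call for mitf held in 13 of 23 alternatives and was lost without any 1 of the 3 numbers, at -1.22 to -0.85. It was also lost without any 1 of the EPO or control libraries at 4.0 h (-1.22 to -0.89) and with no filter on low counts (-1.02). Between control cultures and fresh cells, nbr1 was the one gene of the 6 lists that passed with the block. It encodes a cargo receptor that binds SQSTM1 and was higher in control cultures at 4.0 h by 0.71 ± 0.175 (edgeR adjusted p = 0.0351, and 0.328 without the block). At that time 1 of the 19 tested genes of its list passed with the block, beside 0.593% of all tested genes. The call for nbr1 held in 15 of 23 alternatives. It was lost without any 1 of the 3 numbers, at 0.54 to 0.86, and without the fresh library of number 1 (0.53) or number 2 (0.80). Leaving out any 1 of the control libraries at 4.0 h ended it as well, at 0.64 to 0.81.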

How the data were processed

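The authors' deposited table holds raw whole-number counts per gene, 1 column per library. Per the submitters' processing notes, fastp 0.21.0, BWA 0.7.17-r1188, Salmon and R 4.3.2 were used; what each did, which genome build and annotation served and whether strand was used is not given in the sources used here. Libraries were made with the Lasy-Seq 3' protocol, per the labels' protocols.

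Genes were matched by symbol to a RefSeq gene table (UCB_Xtro_10.0), where all 37 members were found. There, 6 members overlap another gene (atg16l1, atg4b, atg4d, atg5, sqstm1 and wipi2), so reads there could be shared. The neighbour of sqstm1 gathered 6 counts.

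In R 4.3.3, edgeR 4.0.16 was run on the counts with filterByExpr, TMM scaling, 5 group means and robust quasi-likelihood tests (8939 genes, 10 residual degrees of freedom), two-sided, with Benjamini-Hochberg adjustment per comparison and a threshold of 0.05. The SE is the log2 fold change divided by the square root of F. Levels are TMM-scaled CPM, and intervals and floors (3 counts) cover counting error only where they come from counts. Adding the replicate number as a block leaves 8 residual degrees of freedom. Tests and intervals used the total degrees of freedom of the fit, which also include a part borrowed from other genes. The p-values therefore rest partly on a spread shared across genes. Pairing was checked over the 1417 genes whose log2 CPM averaged above 5: the 30 pairs of the same number had a median r of 0.406, against -0.258 for the other 60, and 15 of 15 libraries correlated best with their own number. Both medians are tied to each other, because deviations within a group sum to 0. The pairing is read from the data, not from the labels. Chi-square tests of counts showed the libraries of each group to be distinct.

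Members, lists, named genes and tests were chosen with earlier results of these data known. Named in full were members that passed with or without the block, bnip3l, bnip3, sqstm1, ulk1, ulk2, becn1, atg7, the tested ATG8 genes and the 3 members with the highest mean CPM, and from each further list up to 4 genes that passed; wipi1, rb1cc1, ulk3 and the genes called only with the block were added after their values were seen. Alternatives were DESeq2 1.42.0 (Wald test or size factors), no filter, a mean of at least 10 CPM, no globin genes, the block, and leaving out each library, all repeated within the block, where each number was also left out. The fits were tested on simulated data.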

Additional observations from a re-analysis of the deposited data

How the results depend on the processing

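Without the block, edgeR called 39, 17, 106 and 0 genes for EPO against control at 1.5 h, at 4.0 h, over both times and for the difference between times, and 29, 6 and 1 for control cultures at 1.5 h and 4.0 h over fresh cells and at 4.0 h over 1.5 h. In the same order, the replicate block gave 139, 76, 330, 12, 117, 53 and 8 genes, no filter on low counts gave 66, 37, 163, 7, 68, 38 and 7, and the DESeq2 Wald test gave 71, 49, 206, 0, 68, 17 and 4. A mean of at least 10 CPM gave 26 at 4.0 h with EPO and 3 at 4.0 h over fresh cells. Leaving out 1 library gave 13 to 49, 0 to 23, 66 to 145, 0 to 1, 7 to 37, 0 to 11 and 0 to 5 genes. EPO at 4.0 h had 0 genes without its library of number 3.

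Members called were 0 in all 7 comparisons without the block. The replicate block gave 1, 1 and 2 for EPO at 1.5 h, at 4.0 h and over both times, and 1 and 1 for control cultures at 1.5 h and 4.0 h over fresh cells. No filter gave 1 for EPO at 4.0 h and 1 over both times, and the DESeq2 Wald test 1 over both times. Leaving out 1 library gave 0 to 1 over both times and 0 in the other comparisons. Unblocked, sqstm1 passed over both times with the DESeq2 Wald test, with no filter, and without the control library of number 1 at 1.5 h or at 4.0 h. Within the block, leaving out a library or number gave 1 to 2 members in each of the 3 EPO comparisons, 0 to 1 in control cultures at 1.5 h and at 4.0 h over fresh cells and 0 in the others, and the DESeq2 Wald test gave 2 for control cultures at 4.0 h, sqstm1 and ulk1.

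Some effects that did not pass changed sign in both kinds of comparison. For control cultures over fresh cells, atg101 at 1.5 h was at 0.032 in edgeR and -0.012 in DESeq2, ulk2 at 4.0 h at -0.023 and 0.012, and map1lc3b at 1.5 h at -0.00077 without and 0.015 with the block. For EPO against control without the block, leaving out 1 library gave -1.13 to 0.026 for ulk2 at 1.5 h and -1.22 to 0.29 at 4.0 h, with the upper end without the control library of number 3. Over both times it gave -0.073 to 0.013 for gabarap, -0.12 to 0.059 for gabarapl2, -0.13 to 0.073 for bnip3l, -0.26 to 0.040 for becn1 and -0.015 to 0.22 for atg7, and with no filter gabarap was at 0.0082. The cause of these shifts was not tested. EPO libraries were on average deeper, fresh libraries shallowest, and at 3 libraries a group the low counts of wipi1, ulk3 and map1lc3a leave wide intervals. The sign-flip test over 3 numbers cannot pass 0.05.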
